A study of Mus musculus with 20 samples.

Results

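Collagens, laminins and integrins are the structural chains of the extracellular matrix and the receptors by which cells hold on to it. Members were chosen by gene symbol from the platform annotation: collagen chains without Col1a1, Col1a2 and Col3a1, laminin alpha, beta and gamma chains, and integrin alpha and beta chains without Itgam and Itgb2. Of the 73 such genes on the array, 50 were bright enough to be tested, out of 12832 genes tested in all. The 50 were 21 of 39 collagens, all 10 laminins and 19 of 24 integrins.

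Whole liver RNA was hybridized to 20 Affymetrix Mouse430_2 arrays; the mice were male C57BL/6, 8 to 12 weeks old. The groups were non-manipulated control mice (5 arrays), minor trauma (3 arrays), 1.5 h of hemorrhagic shock with severe trauma (4 arrays, called shock here), and that shock and trauma followed by 1 h (4 arrays) or 4.5 h (4 arrays) of resuscitation, a series made to follow injury over time and severity. The series' text says that all mice were anesthetized and surgically treated, and also calls the controls non-manipulated. What the minor trauma consisted of, when those mice were sampled and which fluid was given were not given in the sources used here. Arrays are numbered as replicates in the labels, which do not say that each came from its own mouse, so the p-values measure the spread between arrays. Levels below are log2 signals, the log2 of the deposited intensity plus 6 after quantile normalization, and the median of every array then lies at 4.6.

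Type IV collagen forms the network of basement membranes, laminins form a second network in the same sheets, and fibrillar and beaded-filament collagens fill the tissue between cells. Integrins are pairs of 1 alpha and 1 beta chain that span the cell membrane and bind matrix or blood-borne ligands outside and talin, kindlin and actin linkers inside. In normal liver the sinusoids lack a continuous basement membrane, and hepatocytes, stellate cells and sinusoidal endothelial cells all make some matrix.

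The tissue label was checked first: all 8 hepatocyte markers were tested and lay above the array median on all 20 arrays, with summed signals of 55800 to 58800 at 4.5 h of resuscitation and 53000 to 60900 in control livers. In whole liver, fewer cells of a type and less RNA per cell cannot be told apart. Among the controls, the array numbered 5 correlated best with an array of the minor trauma group (r = 0.983 with minor trauma 2), and limma's array quality weight was lowest for minor trauma 3 (0.18). Some of the results that rest on these arrays are also given without them. A poly-A spike-in read 425 to 2080 on 10 arrays and 0.348 to 3.72 on the other 10, in a split that crosses all 5 groups. The number of arrays limits the precision of every value.

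Col4a1 and Col4a2, which encode the partner chains of the common type IV collagen, lie head to head on mouse chromosome 8 and are transcribed in opposite directions. In RefSeq's annotation of GRCm38.p6 the genes overlap by 85 bases at their starts (chr8:11312805-11312889). Their promoter windows are shown because both genes rose at 4.5 h of resuscitation. Each window runs from 250 bases before to 50 bases after the start that RefSeq's promoter table takes on that build, for Col4a1 at chr8:11312777-11313076 on the minus strand and for Col4a2 at chr8:11312555-11312854 on the plus strand. For Col4a1 that start lies inside the annotated gene. Capitals mark the 78 bases that both windows hold, read on opposite strands:
Col4a1: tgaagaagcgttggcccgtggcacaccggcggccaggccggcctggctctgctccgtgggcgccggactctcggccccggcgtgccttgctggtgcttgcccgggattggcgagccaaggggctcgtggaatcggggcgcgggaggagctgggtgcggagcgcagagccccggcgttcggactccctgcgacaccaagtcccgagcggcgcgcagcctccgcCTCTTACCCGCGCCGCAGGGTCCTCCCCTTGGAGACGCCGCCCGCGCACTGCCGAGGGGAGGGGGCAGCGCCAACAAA
Col4a2: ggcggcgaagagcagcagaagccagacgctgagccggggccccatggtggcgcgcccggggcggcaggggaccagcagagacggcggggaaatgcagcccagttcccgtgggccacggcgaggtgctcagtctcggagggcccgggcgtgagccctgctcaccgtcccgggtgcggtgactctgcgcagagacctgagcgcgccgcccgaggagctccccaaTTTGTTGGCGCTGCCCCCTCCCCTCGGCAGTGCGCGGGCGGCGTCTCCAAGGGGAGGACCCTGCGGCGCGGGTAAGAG
The GC box GGGCGG, searched on both strands, occurred 1 time in the Col4a1 window and 3 times in the Col4a2 window, and 1 of these lay in the shared stretch. It was also found in 35.7% of all 32851 promoter windows of that length. The CCAAT box, searched as CCAAT, occurred 1 time in each window, outside the shared stretch for Col4a1 and across its edge for Col4a2, and was in 37.4% of all windows. The AP-1 motif TGACTCA was in neither window and in 5.2% of all windows. None of these motifs overlaps another in its letters, and a match is a description of the sequence only.

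Over the 5 groups, 14 of the 50 members differed by limma's F test at an adjusted p of at most 0.05 (Benjamini and Hochberg over all genes tested), against 45.4% of all genes tested. They were 8 collagens, 5 integrins and 1 laminin. In pairwise tests with the same limma fit, 15 members were called in at least 1 of 7 comparisons and 35 in none. Against controls at 4.5 h of resuscitation, 10 of 50 members were called, against 38.9% of all genes tested. Among these 5 were higher, against 15.1% of all genes, and 5 were lower, against 23.8%. The other comparisons with control share the same 5 control arrays and held fewer called members: 2 of 50 after minor trauma against 3.44% of all genes, 0 of 50 after shock against 3.11%, and 3 of 50 at 1 h of resuscitation against 9.91%. The median change of the 50 members at 4.5 h of resuscitation was -0.07 on the log2 scale, and -0.09 over all genes tested.

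**Figure D1:**
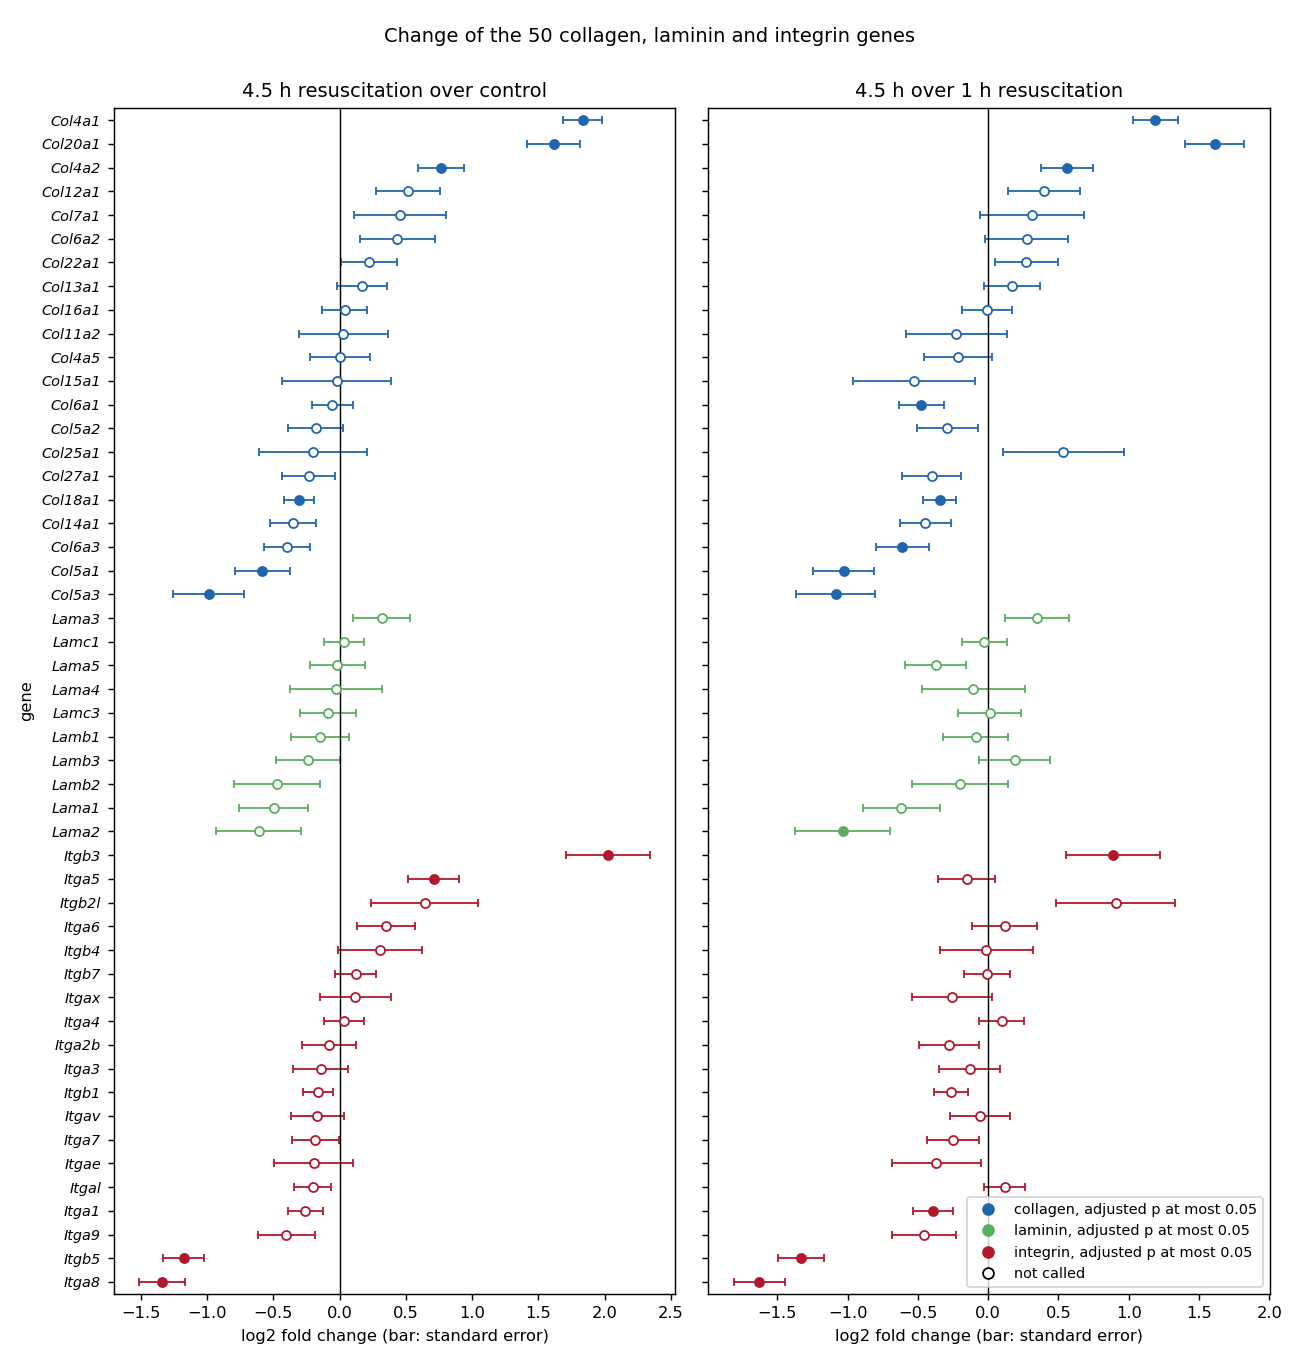
Log2 fold change of each of the 50 members, in 4.5 h resuscitation over control livers and in 4.5 h over 1 h resuscitation livers (x axis; bars are standard errors, filled points passed limma's test at an adjusted p of at most 0.05). Itgb3, Col4a1 and Col20a1 stand at the high end of the first comparison and Itga8 and Itgb5 at the low end, while most members lie near 0.

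Of 3 type IV collagen chains tested, Col4a1 and Col4a2 rose at 4.5 h of resuscitation and Col4a5 was not called. Col4a1 had log2 signals of 9.13, 8.80, 9.30 and 9.06 at 4.5 h, against 7.38, 7.37, 7.10, 6.84 and 7.50 in control livers. Every 4.5 h array was above every control array. The rise was 1.83 ± 0.15 on the log2 scale (SE, adjusted p = 5.69e-09 by limma), or 3.57-fold.

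Col4a1 was also above all control arrays in each earlier group. Its log2 signals were 7.72, 7.53 and 8.02 after minor trauma, 7.89, 7.75, 7.74 and 7.64 after shock, and 7.83, 7.56, 8.11 and 8.03 at 1 h of resuscitation. Of these, the change passed limma's test at 1 h, with 0.65 ± 0.15 (adjusted p = 0.00681), and did not pass after shock (0.52, adjusted p = 0.0641) or minor trauma (0.52, adjusted p = 0.0757). The 1 h call was lost with values as deposited (0.57, adjusted p = 0.457) and within each set of poly-A arrays (0.73 and 0.61, in the high and low sets). The 4.5 h arrays lay above all 1 h arrays as well, by 1.19 ± 0.16 (adjusted p = 7.47e-06). A second Col4a1 probe set gave 2.07 at 4.5 h against control, and 0.85 at 1 h, which was not called (adjusted p = 0.0521).

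Col4a2 had log2 signals of 7.94, 7.56, 8.00 and 7.34 at 4.5 h, against 6.98, 6.93, 7.07, 6.77 and 6.98 in control livers. The groups did not overlap, and the rise was 0.77 ± 0.17 (adjusted p = 0.00129 by limma), or 1.7-fold. The rise was 0.53 and not called with values as deposited (adjusted p = 0.218). Levels were 7.13, 6.51 and 7.42 after minor trauma, 6.96, 7.14, 7.17 and 7.21 after shock, and 7.34, 6.76, 7.09 and 7.42 at 1 h of resuscitation. These overlapped the controls and none of the earlier groups passed the test (0.08, 0.17 and 0.21 in that order). Against 1 h the rise at 4.5 h was 0.56 ± 0.18 (adjusted p = 0.0221) with overlapping arrays, and that call was lost without 1 h replicate 2, 4.5 h replicate 1 or 4.5 h replicate 3 (highest adjusted p 0.0902). Col4a5, a chain of another type IV collagen, was at 0.00 against control at 4.5 h (adjusted p = 0.993).

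**Figure D2:**
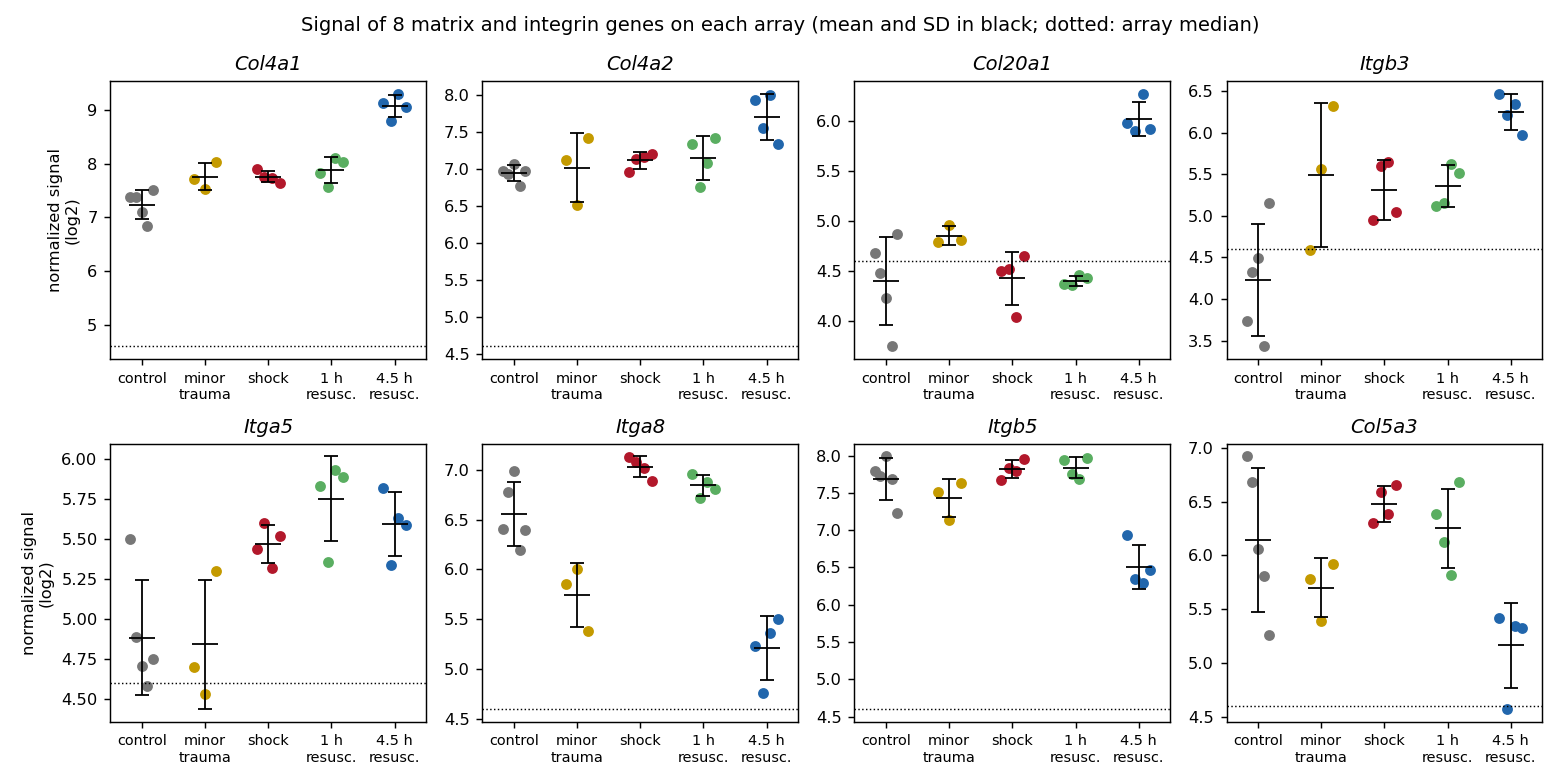
Log2 signal of 8 members on each array, by group (control, minor trauma, shock, then 1 h and 4.5 h resuscitation; points are arrays, bars the mean and SD, the dotted line the array median at 4.6). Col4a1, Col4a2, Itgb3 and Col20a1 were above all control arrays at 4.5 h, and Itga8 and Itgb5 were below all of them.

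Col20a1, a little studied collagen of the fibril-associated type, was higher at 4.5 h of resuscitation than in any other group. It had log2 signals of 5.98, 5.90, 6.27 and 5.92 at 4.5 h, against 4.68, 4.48, 4.23, 3.75 and 4.87 in control livers. The rise was 1.62 ± 0.2 (adjusted p = 1.81e-06 by limma), or 3.06-fold as measured. Of the controls, 2 of 5 lay above the array median, and with the other controls set to the median the 4.5 h level was 2.54-fold higher. Levels were 4.79, 4.96 and 4.81 after minor trauma, 4.50, 4.52, 4.04 and 4.65 after shock, and 4.37, 4.36, 4.46 and 4.43 at 1 h of resuscitation, all close to the array median. All 4 of the 1 h arrays were at or below the median, so the level there is only bounded: the 4.5 h level was at least 2.66-fold higher (measured change 1.61 ± 0.21, adjusted p = 6.29e-06). The other 2 probe sets of Col20a1 that were bright enough rose by 2.05 and 1.05 at 4.5 h against control. Col20a1 passed the brightness filter on 10 arrays, among them all 4 of the 4.5 h group.

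Other collagens fell at 4.5 h. Col5a3, a chain of the type V collagen that helps set the width of collagen fibrils, had log2 signals of 5.42, 4.57, 5.34 and 5.32 at 4.5 h, against 6.92, 6.68, 6.06, 5.81 and 5.26 in control livers. Only control 5 overlapped the 4.5 h arrays. The fall was -0.99 ± 0.27 (adjusted p = 0.00552 by limma), and -1.21 (adjusted p = 0.000408) without control 5. Col5a3 levels were 5.78, 5.39 and 5.92 after minor trauma, 6.30, 6.59, 6.38 and 6.65 after shock, and 6.38, 6.12, 5.82 and 6.68 at 1 h of resuscitation. The 1 h arrays all lay above the 4.5 h arrays, by a change of -1.09 at 4.5 h (adjusted p = 0.00516). The call against control was lost within the low poly-A set (-0.76). The call against 1 h was lost within each set of poly-A arrays (-0.94 and -1.22, in the high and low sets).

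Col5a1, the partner chain of type V collagen, changed by -0.58 at 4.5 h against control and by -1.03 against 1 h. Col18a1, a basement membrane collagen from which the peptide endostatin is cut, changed by -0.31 and -0.34 in these comparisons, and its second probe set by -0.95 and -0.93. Against 1 h, 2 chains of the beaded-filament type VI collagen also fell at 4.5 h: Col6a1 by -0.48 and Col6a3 by -0.61. Against control these were at -0.05 and -0.40 and did not pass. For Col6a2, another type VI chain, the tested probe set was at 0.27 against 1 h and not called. Its dimmer probe set was called there, at -1.43 (adjusted p = 0.00383 by limma over all kept probe sets). On the brightest probe sets, these calls had adjusted p-values of 0.000917 to 0.0329 by limma. Col5a1 lost its call against control without control 2, control 3, 4.5 h replicate 1 or 4.5 h replicate 3 (highest adjusted p of these fits 0.148). Col18a1 lost it without control 1, control 2, 4.5 h replicate 1 or 4.5 h replicate 2 (highest 0.0997), and lost the call against 1 h without 1 h replicate 1 or 4 or 4.5 h replicate 1 or 2 (highest 0.103). Against 1 h, Col6a3 lost its call without 1 h replicate 1 or 4 (highest 0.0588), and Col6a1 without 1 h replicate 1, 3 or 4 or 4.5 h replicate 1 or 3 (highest 0.0667).

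The fibrillar collagens that the choice of members left out gave no call against control: at 4.5 h Col1a1 was at -0.41, Col1a2 at -0.04 and Col3a1 at 0.01 (adjusted p = 0.267, 0.856 and 0.992 by limma). All 3 differed over the 5 groups by the F test. Col1a1 was called at 4.5 h against 1 h (-0.90, adjusted p = 0.0233), and Col3a1 in shock against minor trauma (1.33, adjusted p = 0.0198). Of the 21 collagens tested, 3 were called higher and 3 lower at 4.5 h against control, against 38.9% of all genes called in either direction. The 15 collagens that did not pass ran from -0.40 for Col6a3 to 0.52 for Col12a1, with 2 of them at an unadjusted p under 0.05. For 3 of these 15, another, dimmer probe set was called at 4.5 h against control. It gave 1.31 for Col12a1 (adjusted p = 0.00217 over all kept probe sets), 1.57 for Col25a1 (adjusted p = 0.000594) and -1.21 for Col6a2 (adjusted p = 0.00677). The brighter probe set of Col6a2 pointed the other way, at 0.44, and that of Col25a1 at -0.20, so for these genes the probe sets disagree.

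Among integrins, Itgb3 rose most. It encodes the beta 3 chain, which pairs with the alpha IIb chain on platelets as the fibrinogen receptor and with the alpha v chain on endothelial and other cells. Itgb3 had log2 signals of 6.47, 6.21, 6.34 and 5.97 at 4.5 h of resuscitation, against 3.73, 4.32, 4.49, 3.43 and 5.16 in control livers. The groups did not overlap, and the rise was 2.02 ± 0.32 (adjusted p = 3.19e-05 by limma). Only control 5 lay above the array median, 1 of 5 controls, and with the other controls set to the median the 4.5 h level was 2.89-fold higher. Without control 5 the controls give only a bound: the 4.5 h level was at least 3.13-fold higher (measured change 2.25, adjusted p = 4.25e-06).

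Means of the earlier groups lay between these. Itgb3 was at 4.59, 5.56 and 6.32 after minor trauma, at 4.95, 5.60, 5.65 and 5.05 after shock, and at 5.12, 5.16, 5.63 and 5.52 at 1 h of resuscitation. Each of these groups overlapped the controls through control 5. The change was 1.26 ± 0.34 after minor trauma (adjusted p = 0.0469), 1.09 after shock (adjusted p = 0.0676) and 1.13 ± 0.32 at 1 h (adjusted p = 0.0241). The minor trauma call was lost under 23 of 32 alternatives, and the 1 h call without control 1, control 4, 1 h replicate 3 or 1 h replicate 4 (highest adjusted p 0.0818). The change at 4.5 h against 1 h, 0.89 ± 0.33 (adjusted p = 0.0452), was lost under 16 of 32, among them leaving out any of 9 single arrays (highest adjusted p 0.11).

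The alpha partners of beta 3 gave no such values. Itga2b, the alpha IIb chain, was at -0.08 at 4.5 h against control (adjusted p = 0.802 by limma), and Itgav, the alpha v chain, at -0.17 (adjusted p = 0.555). Of 5 other platelet markers tested, 2 rose and 0 fell at 4.5 h: Pf4 by 0.44 and Ppbp by 0.75. In that comparison with control 38.9% of all genes were called, in either direction. The summed signal of the 5 was 181 to 190 at 4.5 h, against 122 to 167 in control livers. Whether platelet content had a part in the Itgb3 result was not tested.

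Itga5, the alpha chain of the classical fibronectin receptor, rose at both times of resuscitation. It had log2 signals of 5.83, 5.36, 5.93 and 5.89 at 1 h and 5.82, 5.34, 5.63 and 5.59 at 4.5 h, against 5.50, 4.89, 4.71, 4.58 and 4.75 in control livers. Control 1, at 5.50, was the highest control and lay above 1 array of each resuscitated group. The change was 0.86 ± 0.19 at 1 h (adjusted p = 0.00542 by limma) and 0.71 ± 0.19 at 4.5 h (adjusted p = 0.00604). Both calls were lost with values as deposited (0.77, adjusted p = 0.21 at 1 h, and 0.50, adjusted p = 0.262 at 4.5 h) and within each set of poly-A arrays (0.88 and 0.90 at 1 h, 0.82 and 0.64 at 4.5 h, in the high and low sets). It was 4.70, 4.53 and 5.30 after minor trauma, and 5.44, 5.60, 5.32 and 5.52 after shock. The shock change, 0.58 (adjusted p = 0.124), did not pass, and without control 1 it was 0.73 (adjusted p = 0.0286). Leaving out the highest control must enlarge the change, so that value is no support for a rise after shock. Itgb1, the beta chain with which alpha 5 pairs, was at 0.10 at 1 h and -0.16 at 4.5 h, both not called.

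Itga8 and Itgb5 fell at 4.5 h. Itga8 encodes an alpha chain that pairs with beta 1, binds RGD-type matrix ligands and is made by stellate cells in liver. It had log2 signals of 5.23, 4.76, 5.36 and 5.50 at 4.5 h, against 6.41, 6.78, 6.99, 6.19 and 6.40 in control livers. No 4.5 h array reached a control array. The fall was -1.34 ± 0.17 (adjusted p = 2.95e-06 by limma), a 2.53-fold lower level.

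Itga8 was at 5.85, 6.00 and 5.38 after minor trauma, at 7.13, 7.08, 7.02 and 6.89 after shock, and at 6.96, 6.72, 6.88 and 6.81 at 1 h of resuscitation. Minor trauma arrays all lay below all control arrays, with a change of -0.81 ± 0.19 (adjusted p = 0.0249). All shock arrays lay above all minor trauma arrays, with a change of 1.29 ± 0.2 (adjusted p = 0.000457). Shock against control was 0.47 (adjusted p = 0.168), and 1 h of resuscitation against control 0.29 (adjusted p = 0.357), with all 1 h arrays inside the control range. At 4.5 h against 1 h the change was -1.63 ± 0.18 (adjusted p = 8.28e-07). The minor trauma call was lost without control 1, control 2, control 3 or minor trauma 3 (highest adjusted p 0.168). A second, dimmer Itga8 probe set gave -0.15 after minor trauma, 0.62 in shock against minor trauma and -0.76 at 4.5 h against control. None of these was called (adjusted p = 0.865, 0.288 and 0.0622 by limma over all kept probe sets). At 4.5 h against 1 h that probe set was called, at -1.07 (adjusted p = 0.0171).

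Itgb5 encodes the beta 5 chain, which pairs with alpha v as a vitronectin receptor. Its log2 signals were 6.94, 6.34, 6.29 and 6.46 at 4.5 h of resuscitation, against 7.79, 7.73, 7.99, 7.68 and 7.23 in control livers. Here too every 4.5 h array was below every control array, by -1.18 ± 0.16 (adjusted p = 4.08e-06 by limma), a 2.26-fold lower level. Before 4.5 h its levels were 7.51, 7.14 and 7.63 after minor trauma, 7.67, 7.84, 7.79 and 7.96 after shock, and 7.94, 7.76, 7.68 and 7.97 at 1 h, with changes against control of -0.26, 0.13 and 0.15 that were not called. The fall at 4.5 h against 1 h was -1.33 ± 0.16 (adjusted p = 2.91e-06). Among 3 other Itgb5 probe sets at 4.5 h against control, 2 were called, at -1.75 and -1.14, and 1 was at -0.24 and not called.

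Of the 19 integrins, 2 were called higher and 2 lower at 4.5 h against control, against 38.9% of all genes called in either direction. The 15 that did not pass ran from -0.40 for Itga9 to 0.64 for Itgb2l. These include the leukocyte integrin chains Itgal, Itgax, Itgae, Itga4 and Itgb7, at -0.20, 0.12, -0.20, 0.03 and 0.12. Itgb2, the beta chain shared by most leukocyte integrins and not a member here, was called at 4.5 h with 0.82 (adjusted p = 0.00213 by limma). The 9 neutrophil markers tested, Itgb2 among them, all rose at 4.5 h, with a summed signal of 11600 to 13300 at 4.5 h, against 223 to 375 on 4 control arrays and 3990 on control 5. Itga1, the alpha chain of a collagen receptor, changed by -0.39 at 4.5 h against 1 h, with arrays that did not overlap, and by 0.62 in shock against minor trauma. The first of these calls was lost without 1 h replicate 1 or 3 or 4.5 h replicate 1 or 3 (highest adjusted p 0.144).

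**Figure D3:**
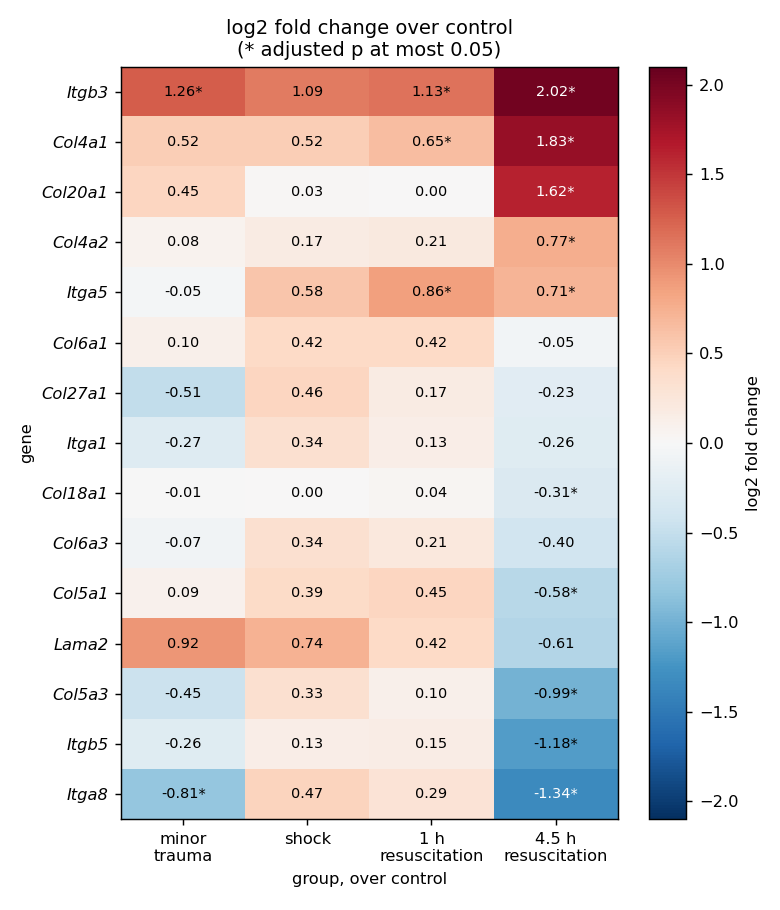
Log2 fold change over control of the 15 members called in at least 1 of 7 comparisons (rows) in the minor trauma, shock, 1 h resuscitation and 4.5 h resuscitation groups (columns); an asterisk marks an adjusted p of at most 0.05 by limma. Most asterisks are in the 4.5 h column, and the shock column has none.

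Laminins gave no call against control. Of the 10 chains, 0 passed limma's test in any of the 4 comparisons with control, against 3.44% of all genes after minor trauma, 3.11% after shock, 9.91% at 1 h and 38.9% at 4.5 h. An unadjusted p under 0.05 was reached by 1 chain after minor trauma, 1 after shock, 0 at 1 h and 0 at 4.5 h, against 21.3%, 14.2%, 22.4% and 46.5% of all genes in that order. Changes at 4.5 h ran from -0.61 for Lama2 to 0.32 for Lama3, with standard errors of 0.15 to 0.35. A dimmer probe set of Lama3, a chain of epithelial laminins, was called at 1.06 (adjusted p = 0.0209 over all kept probe sets). Lamc1, the gamma chain of most laminins, was at 0.03 with a standard error of 0.15 (adjusted p = 0.887), and Lamb1 at -0.15 (adjusted p = 0.635).

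Lama2, the alpha chain of the laminin known from muscle, was called at 4.5 h against 1 h. It had log2 signals of 3.72, 4.18, 3.40 and 3.0 at 4.5 h, against 5.22, 3.79, 4.54 and 4.88 at 1 h. The groups overlapped, and all 4.5 h arrays lay below the array median, so the fall of -1.04 ± 0.34 (adjusted p = 0.0234) gives no usable fold. The call was lost without 1 h replicate 1, 1 h replicate 4, 4.5 h replicate 3 or 4.5 h replicate 4 (highest adjusted p 0.0939). Within the set of high poly-A arrays the change was -0.20, and within the low set -1.95. Lama2 levels were 3.26, 4.37, 4.46, 4.27 and 4.56 in control livers, so the 4.5 h arrays overlapped the controls. At 4.5 h against 1 h a dimmer probe set of Lama5 was called at -0.99 (adjusted p = 0.0165 by limma over all kept probe sets). The brighter Lama5 probe set was at -0.37 and not called.

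Minor trauma had 2 members called against control, Itga8 lower and Itgb3 higher. The count rested on single arrays: it was 0 without control 1, 2 or 3 or minor trauma 3, 4 without control 5 or minor trauma 1, and 3 without minor trauma 2. Calls over all genes moved with the same arrays: limma called 441 genes with all arrays, 80, 73, 109, 284 and 1223 without controls 1 to 5 in turn, and 931, 853 and 0 without minor trauma 1 to 3 in turn. Without minor trauma 3, 1685 genes had an unadjusted p under 0.05. Leaving out control 4 or any 1 of the 12 shock and resuscitation arrays left 1, Itga8. Without control 5 the added calls were Col4a1 (0.59, adjusted p = 0.0299 by limma) and Col13a1, a membrane collagen (0.82, adjusted p = 0.00907). With median centring the split was 3 higher and 1 lower, against 648 higher and 77 lower over all 12832 genes.

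Shock without resuscitation gave no member call against control by limma, with 8 of 50 members at an unadjusted p under 0.05, against 14.2% of all genes, a share close to the members'. These were Col4a1, Col6a1, Col27a1, Itga1, Itga5, Itga8, Itgb3 and Lama2, all higher. Leaving out control 5 or minor trauma 3 gave 2 calls, Col4a1 and Itgb3, against 3.89% and 4.49% of all genes in those fits. Leaving out control 1 gave 1, Itga5, against 2.67%, and leaving out minor trauma 1 gave 1, Itgb3, against 3.12%.

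The shock and minor trauma groups differ in hemorrhage as well as trauma, and the sampling time after minor trauma was not given. Their contrast does not isolate severity. Shock against minor trauma had 3 of 50 members called, against 9.55% of all genes tested. All 3 were higher, against 4.18% of all genes. Besides Itga8 and Itga1 these held Col27a1, a fibrillar-class collagen of cartilage, at 0.97 ± 0.23 (adjusted p = 0.00938 by limma). It was at 7.63, 7.60, 7.73 and 7.54 after shock, above minor trauma at 7.02, 6.46 and 6.49. Controls, at 7.45, 7.77, 6.92, 6.78 and 6.93, overlapped both. With median centring the split was 2 higher and 1 lower, against 322 higher and 958 lower over all 12832 genes. The Col27a1 call was lost with values as deposited (0.73, adjusted p = 0.273) and within the high poly-A set (0.91, adjusted p = 0.15). Within the low set, with 1 minor trauma array, the Col27a1 change was 1.13. The Itga1 call was lost without minor trauma 3 (0.44, adjusted p = 0.0837) and with values as deposited (0.4, adjusted p = 0.568). In the same comparison 3 of 14 stellate cell and fibroblast markers were higher and 0 lower, by limma: Lrat at 1.83, Col3a1 at 1.33 and Acta2 at 0.68. Their summed signal was 4050 to 4350 after shock, against 3460 to 3830 after minor trauma, with no overlap. The part of these cells in the member calls was not tested.

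Across resuscitation, 1 h against shock had 0 of 50 members called by limma, against 1.25% of all genes, and 1 at an unadjusted p under 0.05. The 4.5 h group against 1 h had 13 of 50 called, against 33.1% of all genes tested. Of these 4 were higher, against 14.9% of all genes, and 9 were lower, against 18.2%. The count was 7 without 1 h replicate 1 and 8 without either 1 h replicate 4 or 4.5 h replicate 3, against 27.1%, 29.1% and 29.4% of all genes in those fits. With median centring the split was 2 higher and 10 lower. Over all 12832 genes it was then 1914 higher and 2337 lower with the main setting, and 1244 and 2486 with median centring.

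Other genes of the pathway were read in the same comparisons. Among 17 basement membrane and matrix partners tested, 1 rose and 4 fell at 4.5 h against control, against 38.9% of all genes called. Thbs1, a matrix glycoprotein of platelets and wounds, rose by 0.90, and Hspg2, the perlecan core protein that binds type IV collagen and laminin, changed by -1.37. The elastic-fibre protein Fbln5 changed by -0.95 and the fibril-binding proteoglycan Lum by -0.94. The laminin linkers Nid1 and Nid2 were at -0.08 and -0.46, both not called. With values as deposited 0 rose and 4 fell, against 22.7% of all genes called.

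Of 18 collagen processing enzymes tested, 4 rose and 3 fell at 4.5 h against control, against the same 38.9%. Plod2, a lysyl hydroxylase, rose by 1.33 and P3h1, a prolyl hydroxylase, by 0.98. Pcolce2, an enhancer of procollagen cleavage, changed by -1.17, and Bmp1, the protease that trims procollagen ends, by -1.12. With values as deposited 1 rose and 2 fell, against 22.7% of all genes called.

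Of 26 integrin adaptors and focal adhesion genes tested, 4 rose and 7 fell at 4.5 h against control, against 38.9% of all genes, while 4 rose and 1 fell at 1 h, against 9.91%. On values as deposited 0 rose and 2 fell at 4.5 h, and the 5 calls at 1 h were lost. On those values 22.7% and 3.76% of all genes were called at 4.5 h and 1 h. At 4.5 h Lims2, which links integrin-linked kinase to actin, changed by -1.78 and Tln2, a talin, by -1.15. The small GTPase Rap1b rose by 0.78 and the actin regulator Vasp by 0.68. At 1 h the focal adhesion proteins Zyx, Vcl and Pxn rose by 0.93, 0.66 and 0.58, and Tns3 changed by -0.63. Zyx was at -0.43 at 4.5 h against control, a fall that also passed. With median centring the 4.5 h split was 2 higher and 7 lower, and the same split resulted without control 5. In those fits 34% and 40.4% of all genes were called.

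Of 17 matrix proteases and inhibitors tested, 3 were higher than control after shock, 9 at 1 h and 10 at 4.5 h, and 1 was lower, at 4.5 h. Over all genes 3.11%, 9.91% and 38.9% were called in these comparisons, in either direction. The largest changes at 4.5 h were in the collagenases Mmp13 (3.68) and Mmp8 (3.07), the inhibitor Timp1 (2.91) and the aggrecanase Adamts4 (1.86). Mmp8 and Mmp9 are also neutrophil granule genes and stand in the neutrophil list above.

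Markers of other liver cells were read beside these results. At 4.5 h against control, where 38.9% of all genes were called, of 10 sinusoidal endothelial markers tested, 2 rose and 7 fell, and their summed signal was 1550 to 1780 at 4.5 h against 2190 to 2970 in control livers. Kdr, the VEGF receptor of endothelium, changed by -2.41 and Clec4g, a lectin of sinusoidal endothelium, by -1.80. Lyve1 and Cdh5, also endothelial, rose by 1.77 and 0.58. With values as deposited 1 rose and 6 fell, against 22.7% of all genes called.

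Of 14 stellate cell and fibroblast markers tested, 0 rose and 2 fell at 4.5 h by limma: Lrat, the retinyl ester enzyme of stellate cells, by -1.95 and Reln by -0.46. Their summed signal was 3420 to 3530 at 4.5 h and 3190 to 4120 in control livers. At 4.5 h against 1 h, 1 of the 14 was higher, Hand2 at 1.16, and 4 were lower: Lrat at -1.72, Col1a1 at -0.90, Acta2 at -0.72 and Reln at -0.59, against 33.1% of all genes. The 1 h sums, 3400 to 4320, overlapped the 4.5 h sums. Among the matrix genes in that list at 4.5 h against control, Dcn, Col1a1, Col1a2 and Col3a1 were at 0.04, -0.41, -0.04 and 0.01, none of them called. Of 8 Kupffer cell markers, 1 rose and 7 fell in that comparison, and of 5 monocyte markers, 4 rose. How far changes in these cells had a part in the member results was not tested.

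**Figure D4:**
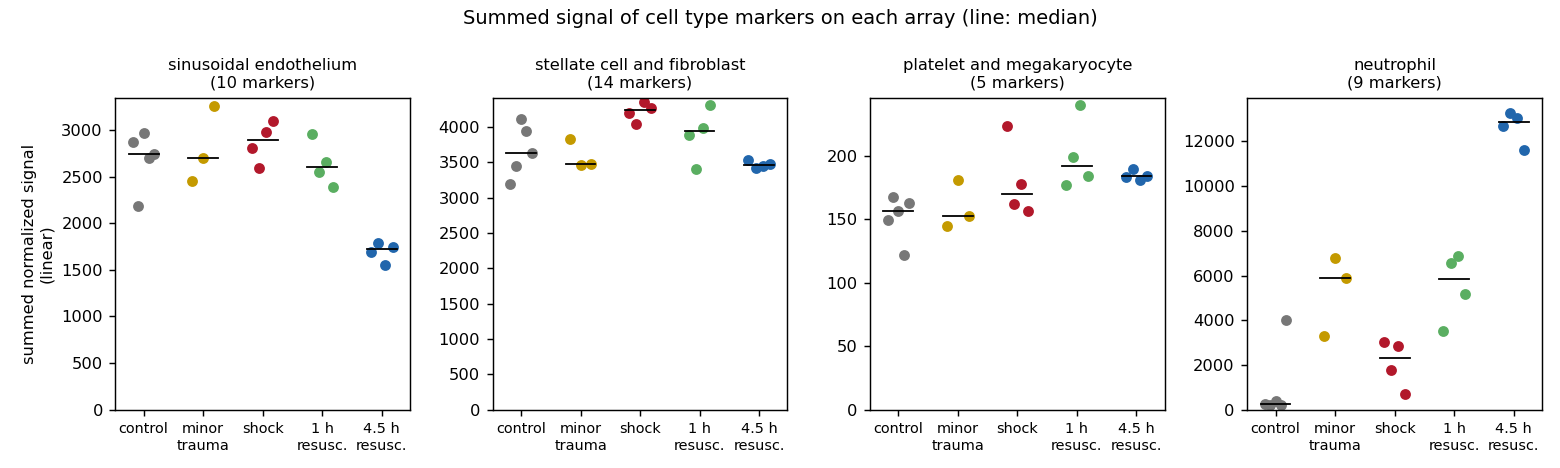
Summed signal per array of 4 marker lists (sinusoidal endothelium, stellate cell and fibroblast, neutrophil, and platelet genes that are not members), by group (control, minor trauma, shock, then 1 h and 4.5 h resuscitation). At 4.5 h the endothelial sums lay below all control arrays and the neutrophil sums above all of them, while the stellate sums overlapped.

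Of the 31 called results of members, 9 kept their call and direction under all 32 alternatives. These were Col4a1, Col20a1, Itga8 and Itgb5 at 4.5 h both against control and against 1 h, and Itgb3 at 4.5 h against control. The other 22 lost the call under at least 1 alternative, and 0 changed direction. For 18 of the 31 results the gene had another kept probe set, and it pointed the same way in all 18. That count covers direction only: in some of the 18, such as Itga8 at 4.5 h against control, no other probe set was called. Itgb3 and Col4a2 had no other kept probe set.

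The 23 members that were not tested lay above the array median on no array (12 genes) or on 1 or 2 arrays (11 genes). They were 18 collagens, among them Col2a1, Col10a1, Col4a3 and Col8a1, and the integrins Itga2, Itga10, Itgb6, Itgb8 and Itgbl1. Itgb2l, on the other side of that limit, lay above it on 3 arrays. Of the 50 tested, 24 lay above the median on all arrays, 15 on 10 to 19 and 11 on 3 to 9.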

How the data were processed

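Whole liver RNA of 20 arrays in 5 groups was analysed, grouped by the labels. The deposited values are linear intensity signals; the submitters' processing notes name MAS5 as the authors' tool, with no version. These intensities differed in scale, with array trimmed means of 64.93 to 166.6 and array medians of 14.05 to 29.11.

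Members, gene lists and tests were chosen with earlier results of these data known, which is also why quantile normalization was the main setting. A pseudocount of 6 was added, log2 taken and the 20 arrays quantile normalized. Of 45101 probe sets 34945 had 1 gene in GEO's annotation of the platform, with symbols updated through RefSeq. Probe sets above their own array's median on at least 3 arrays were kept (27274), and for each of 12832 genes the one with the highest mean was tested. For 29 members 1 probe set was kept and for 21 more. A fold on this scale understates the change of dim genes.

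One model of 5 group means was fitted with limma 3.58.1 (lmFit, eBayes with trend) run in R 4.3.3 (tables were read by data.table, version 1.17.8). Each of 7 comparisons had its own Benjamini and Hochberg adjustment over all genes tested, and calls were made at an adjusted p of 0.05. The scripts were tested on simulated data. Where all arrays of the lower group lay at or below the median, a fold is a bound. Full values are given for members called against control with an absolute log2 change of at least 0.8, and also, chosen after their values were seen, for Col4a2, Lama2 and Col27a1; other called members have their change, and of each gene list up to 4 called genes with the largest change per comparison are named, and a few others chosen after their values were seen. Alternatives were other scalings, pseudocounts of 1 and 18, no filter, the mean of probe sets, array weights, the poly-A spike-in set as a block and within sets, the replicate number as a block, and arrays left out. Counts of gene lists under other scalings and without control 5 or minor trauma 3 were added after seeing the data. Promoters came from RefSeq's GRCm38.p6, which had an entry for 35 of 50 members. Figures used python 3.11.15, matplotlib 3.10.9, pandas 2.3.3 and numpy 2.4.6.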

Additional observations from a re-analysis of the deposited data

Results flagged for a closer look

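Of 60 groups of arrays examined for the members called in at least 1 comparison, 3 held an array far from the others of its group, where chance alone gives about 1 in 20. Col5a3 at 4.5 h of resuscitation was lowest on replicate 2, at a log2 signal of 4.57, against 5.32 to 5.42 on the other 4.5 h arrays. In control livers, Col6a3 was lowest on control 1, at 5.51, against 6.1 to 6.3 on the other controls. Lama2 was also lowest on control 1, at 3.26, against 4.27 to 4.56. Without control 1, both genes were called lower at 4.5 h against control, with Col6a3 at -0.54 (adjusted p = 0.0142 by limma) and Lama2 at -0.84 (adjusted p = 0.0377). Control 1 was picked as the lowest control of both genes, so leaving it out must deepen the fall. These calls are therefore no support for a fall. For Lama2 no control array and no 4.5 h array lay above the array median, so its change gives no usable fold.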

How the results depend on the processing

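Over the 32 alternatives the called results of members changed direction in 0 cases. With values as deposited, on which the median change of all genes at 4.5 h against control moved to -0.27, the count of members differing among the groups was 8, and the calls against control numbered 1 after minor trauma, 0 at 1 h and 6 at 4.5 h; shock against minor trauma had 1 and 4.5 h against 1 h had 7. Over all genes these values gave calls for 1.79% after minor trauma, 3.76% at 1 h, 22.7% at 4.5 h, 2.9% for shock against minor trauma and 13.5% for 4.5 h against 1 h. Within the high poly-A set these counts were 5, 0, 0, 8, 1 and 5, and within the low set 4, 0, 0, 7, 0 and 8, in the same order. The shares of all genes called in the 5 pairwise comparisons were 1.75%, 3.68%, 21.8%, 2.07% and 11.9% in the high set and 0%, 2.42%, 23.7%, 0.025% and 18.8% in the low set (by limma; for the 0%, 718 genes had an unadjusted p under 0.05). For members differing among the groups, the share of all genes was counted with the main setting only (45.4%). Shifts in that count can therefore not be set against all genes. The minor trauma count was 4 (3 higher, 1 lower) with median centring and 1 with array weights, with the mean of probe sets, with no filter, with the poly-A block and without both control 5 and minor trauma 3, against 5.65%, 5.07%, 3.27%, 1.46%, 2.54% and 6.25% of all genes. Array weights gave 2 calls for shock against control and 5 for shock against minor trauma, against 5.91% and 14.1% of all genes, and leaving out both arrays gave 2 for shock against control, against 5.58%.

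Leaving out 1 array at a time gave 12 to 17 members differing among the groups, 0 to 4 calls after minor trauma, 0 to 2 after shock, 2 to 3 at 1 h, 8 to 11 at 4.5 h, 3 to 4 for shock against minor trauma, 0 for 1 h against shock and 7 to 14 for 4.5 h against 1 h. Over all genes the pairwise shares ran, in that order, over 0% to 9.55%, 1.94% to 4.49%, 6.95% to 12.7%, 35% to 43.2%, 5.57% to 12.6%, 0.642% to 1.6% and 27.1% to 37.5%. No such share was counted for the members differing among the groups. The minor trauma count was 0 without control 1, 2 or 3 or minor trauma 3, and 4 without control 5 or minor trauma 1. With the replicate number as a block there were 4 calls after minor trauma and 2 after shock (Col4a1 and Itgb3), against 8.91% and 3.76% of all genes, and the calls of Col5a1 at 4.5 h against control (-0.57, adjusted p = 0.0601) and Itga1 at 4.5 h against 1 h (-0.39, adjusted p = 0.0552) were lost. Arrays with the same number did not deviate together (correlations of -0.08 to 0.17, 3 of 36 over 0.1), so the numbers were not taken as pairs. The cause of these shifts was not tested. Members near the array median have the least signal over background.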

Other observations

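The remaining marker lists were read at 4.5 h of resuscitation against control, where 38.9% of all genes were called. Of 4 cholangiocyte markers tested, Epcam, an epithelial adhesion protein, and Sox9, a transcription factor of bile duct cells, both rose by 0.79 (adjusted p = 0.0176 and 0.00918 by limma), and the summed signal was 90.1 to 162 at 4.5 h against 66.6 to 76.1 in control livers. With values as deposited 0 of the 4 were called, against 22.7% of all genes. Of 6 T, NK and B cell markers, Gzmb, a protease of cytotoxic granules, rose by 2.62 (adjusted p = 1.65e-05), and the other 5 were not called. Of 8 hepatocyte markers, Hnf4a and Tat rose by 0.31 and 0.63 and Cps1 changed by -0.19. For mesothelium 1 marker was tested, Upk3b, at -0.56 (adjusted p = 0.362).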
